A study of Mus musculus with 5 samples.

Results

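Cxcl12, its receptors Cxcr4 and Ackr3, and the chemokines Cxcl14, Cxcl1, Cxcl2 and Cxcl16 were followed by name through single cells of mouse back skin. These 7 genes are 7 of the 28001 features of the unsorted libraries, and each was found in all 4 of them. The series measured RNA in single cells with droplet libraries of 10x Genomics 3′ chemistry. The mutant mice were labelled Lepr-Cre;mTmG;Smo+/-, and the control mice Lepr-Cre;mTmG; another label writes the controls with Smo as well, without a plus or minus sign. All mice were female, and unsorted dorsal skin was taken at postnatal day 46, with 2 libraries for each genotype. A further library held sorted GFP-positive cells of Lepr-Cre;mTmG skin at postnatal day 50 and is kept apart here.

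Lepr-Cre puts the Cre recombinase under the leptin receptor gene, so it acts in any cell that has expressed that gene. mTmG is a reporter that switches a cell from membrane tomato to membrane GFP once Cre has acted, and mutant and control mice both carried it. Smo encodes the membrane protein Smoothened, which passes on the Hedgehog signal, and the labels used here do not say how the allele was changed. Both libraries of each genotype are described in the labels as technical replicates. The p-values below therefore measure the spread between libraries, which may be technical, and not a spread between animals.

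CXC chemokines are small secreted proteins that steer cells carrying the matching receptor on their surface. Cxcl12 is the classic constitutive member: stromal cells make it without an inflammatory trigger, Cxcr4 is its signalling receptor, and Ackr3 binds and removes it. Cxcl1 and Cxcl2 are induced by inflammatory and stress signals and draw neutrophils through Cxcr2. Cxcl14 is a homeostatic chemokine of epithelia, and Cxcl16 is made as a membrane protein that is shed by the protease Adam10 and is recognised by Cxcr6 on T cells.

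The 2 mutant libraries held 8389 and 8663 cells after filtering, against 8097 and 8248 cells in the 2 control libraries. Median depth was 8467 and 8284 UMIs (unique molecular identifiers, counted molecules) per cell in the mutant libraries, against 9481 and 9764 in the control libraries. Replicate libraries differed by more than counting noise, with a chi-square per degree of freedom of 4.56 between the mutant libraries and 4.44 between the control libraries. Pairs of unsorted libraries shared 24 to 46 cell barcodes. Cells were gated one at a time on marker lists that hold none of the 7 genes. The gate placed 26148 of 33397 cells, and 15 classes had at least 20 cells in every unsorted library and were compared. A class name ending in "-like" says only that its cells pass that marker gate. Papilla-like cells numbered 608 and 609 in mutant libraries, against 248 and 240 in control libraries. As a check of the labels, Ptch1, a receptor gene that Hedgehog signalling turns on, stood at 247 and 268 CPM (a gene's UMIs scaled to a common total) in mutant papilla-like cells, against 42.9 and 51.3 CPM in control papilla-like cells. Hhip and Gli1, which it also turns on, averaged 219 and 70 CPM in mutant papilla-like cells, against 17 and 20.2 CPM in control ones. The direction is that of more Hedgehog signalling in the mutant, which the label Smo+/- does not state. Smo itself stood at 41.6 and 42.5 CPM in mutant papilla-like cells, against 34.1 and 38.9 CPM in control papilla-like cells, and these reads do not tell its alleles apart.

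Levels are given as CPM of the UMIs summed over all cells of a class in a library, so each value stands for 1 library. In such sums a share of expressing cells and the RNA per expressing cell cannot be told apart. Levels of different genes are not compared with each other. The mutant and control libraries were compared within each class by edgeR's quasi-likelihood test with Benjamini-Hochberg adjustment over all genes tested in that class. A gene was called at an adjusted p under 0.05 and a log2 fold change of at least 1 in either direction. Of the 105 pairs of a gene and a class, 96 had enough UMIs to be tested, and 6 were called, all 6 higher in the mutant. A further 17 had an adjusted p under 0.05 with a smaller fold change. Among all genes tested in a class, the share called was 5.21% in papilla-like, 3.42% in T cell-like, 2.26% in basal and 1.93% in suprabasal keratinocyte-like, 1.55% in dermal fibroblast-like, 1.41% in dermal sheath-like and 1.37% in mast-like cells. It was 0.824% in Langerhans or dendritic-like, 0.808% in bulge and 0.21% in upper follicle keratinocyte-like, 0.382% in blood and 0.293% in lymphatic endothelial-like, 0.171% in Schwann-like, 0.0311% in melanocyte-like and 0% in pericyte-like cells. At any fold, the share with an adjusted p under 0.05 was 23.8% in T cell-like, 21.7% in basal keratinocyte-like, 21.5% in papilla-like, 9.16% in dermal fibroblast-like, 9.13% in suprabasal keratinocyte-like and 3.2% in Langerhans or dendritic-like cells.

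**Figure D1:**
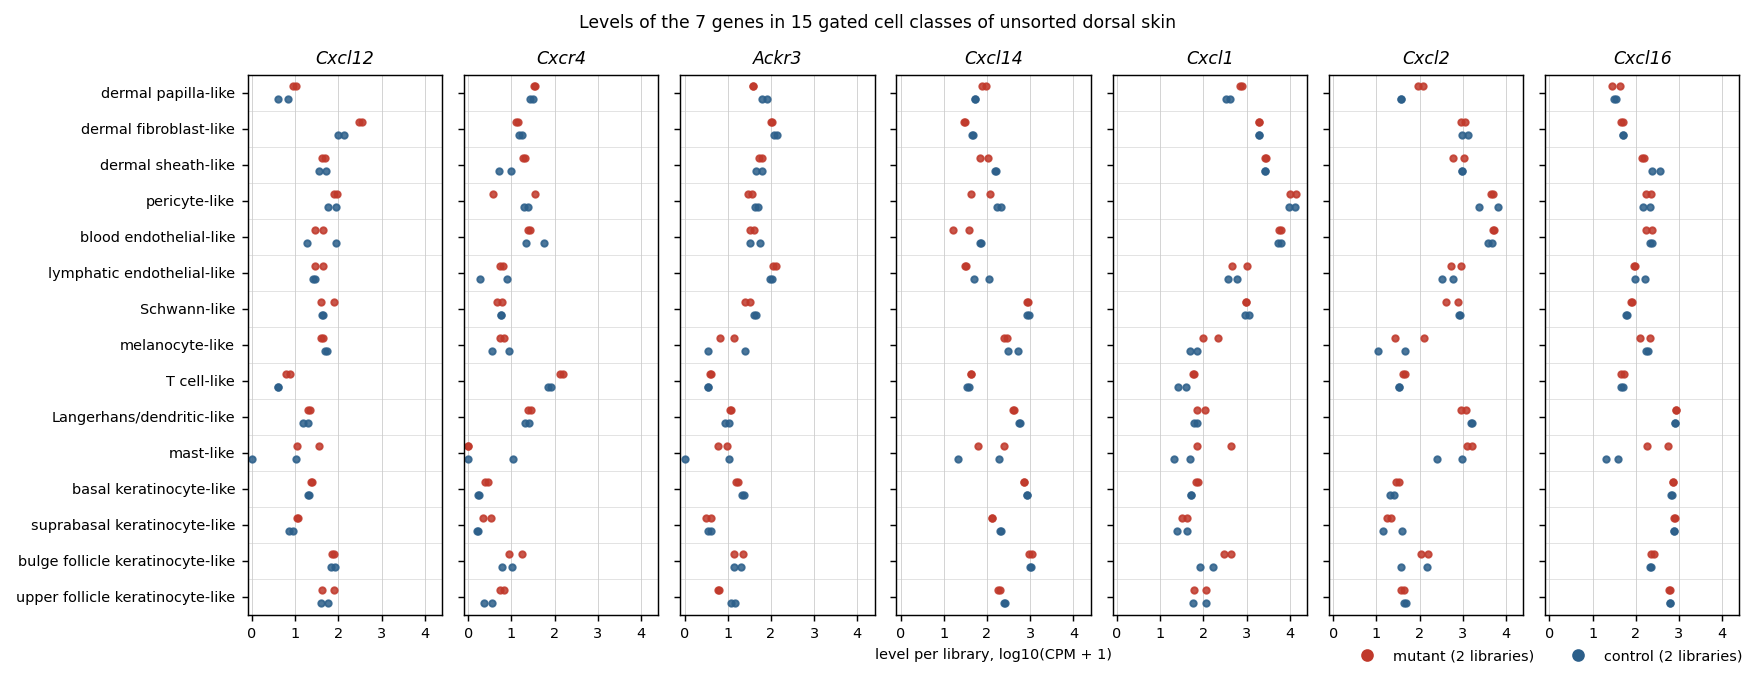
Level of each of the 7 genes in 15 gated classes, as log10(CPM + 1) on the horizontal axis, with 1 point per library and mutant libraries drawn above control libraries. Cxcl12 is highest in dermal fibroblast-like cells (94.9 to 342 CPM) and Cxcr4 in T cell-like cells (67.9 to 157 CPM).

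**Figure D2:**
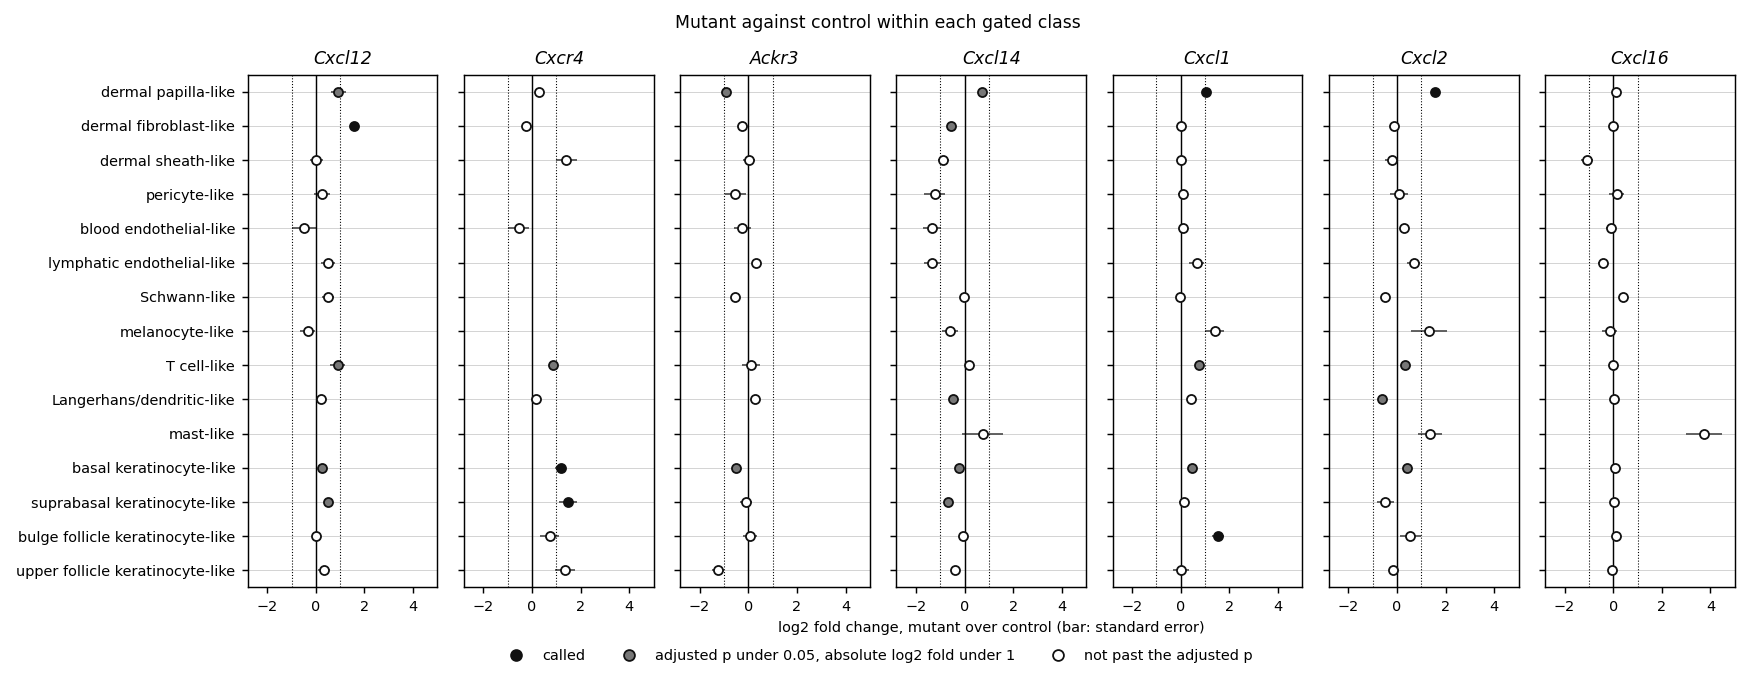
Fold change of mutant over control libraries on the log2 scale for each gene and class, with the standard error as a bar; dotted lines stand at a log2 fold change of 1 in each direction, and pairs that were not tested have no point. The 6 black points are the called pairs, and all 6 lie to the right of 0.

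Cxcl12 was highest in dermal fibroblast-like cells. This class held 10.2% of the cells and 7.08% of all UMIs of the 4 unsorted libraries, but 44.1% of the Cxcl12 UMIs. These were 7617 mutant and 1478 control UMIs, while basal keratinocyte-like cells gave 1690 mutant and 2043 control UMIs. Its mean over the 4 libraries was 218 CPM, with a range of 94.9 to 342 CPM. In control libraries alone the mean was 113 CPM, against 73.5 CPM in bulge follicle keratinocyte-like and 71.7 CPM in pericyte-like cells. Over all 4 libraries it narrowly missed overlap with the next class, pericyte-like cells, at 79.1 CPM and at most 93.9 CPM. From there to dermal sheath-like cells, at 42.9 CPM, each class overlapped with its neighbour in the order: bulge follicle keratinocyte-like cells stood at 74.3 CPM, upper follicle keratinocyte-like cells at 52.7, Schwann-like cells at 49.5, melanocyte-like cells at 45.8 and blood endothelial-like cells at 44.2 CPM. Lymphatic endothelial-like cells, at 30.6 CPM, overlapped with dermal sheath-like cells and lay above basal keratinocyte-like cells, at 21.4 CPM, without overlap. Papilla-like cells, at 6.47 CPM, and T cell-like cells, at 4.4 CPM, were the lowest of the 15.

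The low level in papilla-like cells set Cxcl12 apart between the 2 mesenchymal classes. Dermal papilla cells sit as a small knot at the root of the hair follicle and send the signals that its epithelium follows. With each library as a block, Cxcl12 averaged 5.76 CPM in papilla-like cells and 249 CPM in dermal fibroblast-like cells after TMM scaling, a log2 fold change of -5.38 ± 0.21 (SE; edgeR's quasi-likelihood test, adjusted p = 1.3e-06). It was lower in papilla-like cells in 4 of 4 libraries. Of all genes tested in this comparison, 29% were called, as were 4 of the 7 genes here. The other 3 called were Ackr3 (log2 -1.52 ± 0.152), Cxcl1 (-2.22 ± 0.21) and Cxcl2 (-4.46 ± 0.357), each also lower in papilla-like cells in 4 of 4 libraries. Cxcr4 was higher in papilla-like cells in 4 of 4 libraries, by 0.85 ± 0.15 on the log2 scale with an adjusted p of 0.00165, which is short of the fold change asked for.

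In dermal fibroblast-like cells, Cxcl12 stood at 342 and 304 CPM in mutant libraries, against 94.9 and 131 CPM in control libraries. Both mutant libraries lay above both control libraries. The log2 fold change was 1.56 ± 0.12 (SE; edgeR's quasi-likelihood test, adjusted p = 1.5e-04). Cxcl12 was the 1 of the 7 genes called in this class, where 1.55% of all genes tested were called in either direction. Without mutant replicate 1 the fold change was 1.48 with an adjusted p of 0.0786, and with no filter on low counts it was 1.57 with an adjusted p of 0.0711, both short of the threshold.

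Much of that difference lay in cells found almost only in the mutant. When all cells were clustered without the 7 genes, cluster 21 held 184 and 157 of the mutant dermal fibroblast-like cells, against 3 and 3 of the control dermal fibroblast-like cells. Cxcl12 stood at 879.8 and 887 CPM in the mutant cells of that cluster, and Lepr, the leptin receptor gene whose locus drives the Cre, at 424 and 409.7 CPM. In cluster 6, which both genotypes filled, with 351 and 395 mutant cells and 366 and 330 control cells, Cxcl12 stood at 162 and 157 CPM in mutant cells, against 94.8 and 121 CPM in control cells. In cluster 19 the order of the genotypes was the other way, with 235 and 228 CPM in mutant cells, against 310.0 and 282 CPM in control cells. Control cells of cluster 19 thus held more Cxcl12 than the control cells of the class as a whole.

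An alternative chosen after seeing the data left out the 3 clusters in which at least 95% of the cells came from 1 genotype. These held 18.6% and 15% of the mutant dermal fibroblast-like cells, against 0.421% and 0.448% of the control dermal fibroblast-like cells. Without them Cxcl12 stood at 165 and 154 CPM in mutant libraries, against 95 and 131 CPM in control libraries. The libraries still did not overlap, and the log2 fold change was 0.53 with an adjusted p of 0.0269 (edgeR's quasi-likelihood test), no longer called. Lepr, called in the whole class at a log2 fold change of 1.65 ± 0.118, then stood at 62 and 56.6 CPM in mutant libraries, against 51.8 and 40.3 CPM in control libraries.

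The share of dermal fibroblast-like cells with at least 1 Cxcl12 UMI, after each cell was thinned to 2000 UMIs, was 26.1% and 23.9% in mutant libraries, against 14.4% and 15.6% in control libraries. Without thinning these shares were 50.3% and 49.9% in mutant libraries, against 35.1% and 36.9% in control libraries. Suprabasal keratinocyte-like cells were taken as a low reference because they had the lowest level among the keratinocyte-like classes. Whether they measure free RNA was not tested. They gave thinned shares of 3.1% and 2% in mutant libraries, against 1.5% and 1.11% in control libraries. Papilla-like cells, at 1.52% and 2.03% in mutant libraries and 1.79% and 0.913% in control libraries, were near that reference. Thinning left out 28 and 20 mutant and 12 and 9 control dermal fibroblast-like cells that were shallower.

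**Figure D3:**
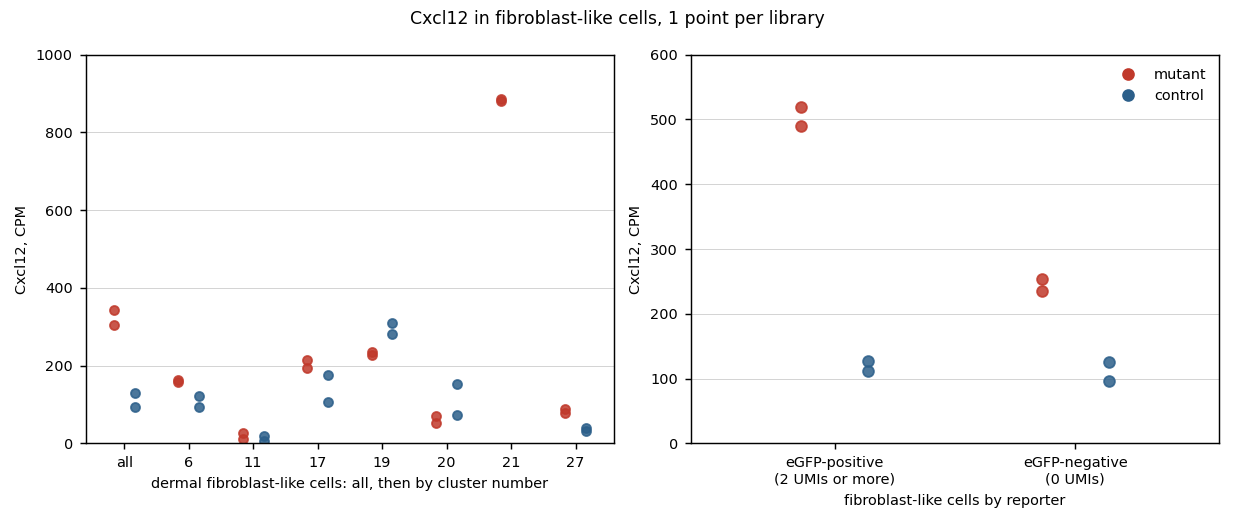
Cxcl12 in CPM in dermal fibroblast-like cells, 1 point per library: at left for all of them and by cluster, at right for cells with at least 2 eGFP UMIs and cells with none. The mutant points of cluster 21 stand at 879.8 and 887 CPM, with no control point for want of cells, and eGFP-positive mutant cells stand at 519.8 and 489.8 CPM.

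The eGFP transcript of the reporter is meant to mark cells in which Lepr-Cre has acted. It stood at 341 and 347 CPM in mutant dermal fibroblast-like cells, against 65.4 and 62.6 CPM in control ones. Control cells of cluster 0, mostly basal keratinocyte-like, held 57.6 CPM. Cells with at least 2 eGFP UMIs made up 26.3% and 23.7% of the mutant dermal fibroblast-like cells, against 11.2% and 12.7% of the control dermal fibroblast-like cells. In the mutant libraries, Cxcl12 stood at 519.8 and 489.8 CPM in eGFP-positive cells, against 254 and 236 CPM in eGFP-negative cells. In the control libraries it stood at 127 and 112 CPM in eGFP-positive cells, against 96 and 126 CPM in eGFP-negative cells. The eGFP-positive cells were thus higher in Cxcl12 in both mutant libraries, while the 2 sides overlapped in the controls. With eGFP this low in control dermal fibroblast-like cells, whether Cre had acted in those counted as eGFP-positive was not tested.

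Over all 4 libraries the reporter difference was 0.64 ± 0.174 on the log2 scale, higher in 3 of 4 libraries (edgeR's quasi-likelihood test, adjusted p = 0.128). None of the 7 genes was called between eGFP-positive and eGFP-negative dermal fibroblast-like cells, where 0.54% of all genes tested were; 1 of the 7 had an unadjusted p under 0.05, and DESeq2 was not run on this split. The difference of that difference, mutant minus control, was 0.95 ± 0.163 with an adjusted p of 0.0128, and 0.734% of all genes were called in that test, which asked for a log2 difference of at least 1. The clusters held by 1 genotype took 39.8% and 40.7% of the mutant eGFP-positive cells, against 10.8% and 6.55% of the mutant eGFP-negative cells, and their part in the reporter difference was not tested. Median depth also moved with the reporter, at 14714 and 13557 UMIs in mutant eGFP-positive cells against 9819 and 9386 UMIs in mutant eGFP-negative cells. In papilla-like cells edgeR's test called none of the 7 genes by reporter, where it called 0.723% of all genes tested, and 1 of the 7 had an unadjusted p under 0.05. The same test of mutant minus control called 0.564% of all genes there. Depth differed strongly in control papilla-like cells, with medians of 27140 and 26361 UMIs in eGFP-positive cells, against 3307 and 3838 UMIs in eGFP-negative cells. In mutant papilla-like cells the medians were 8384 and 8263 UMIs, against 5736 and 5813 UMIs. With 0 eGFP UMIs in such shallow cells, whether Cre had acted in the eGFP-negative papilla-like cells was not tested.

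In no other class was Cxcl12 called between genotypes by edgeR, although 4 had an adjusted p under 0.05; DESeq2 called it in dermal fibroblast-like cells alone. In papilla-like cells its level was 9.33 and 7.67 CPM in mutant libraries, against 5.94 and 2.96 CPM in control libraries, on 101 mutant and 39 control UMIs in all. The libraries did not overlap, but the log2 fold change of 0.93 ± 0.302 (edgeR's quasi-likelihood test, adjusted p = 0.0376) was under the fold asked for. Without control replicate 1 it was 1.55 with an adjusted p of 7.8e-04, past both limits, and without control replicate 2 it was 0.53. Smaller fold changes with an adjusted p under 0.05 were 0.89 in T cell-like, 0.49 in suprabasal and 0.24 in basal keratinocyte-like cells, all positive. Col1a1, a collagen gene that fibroblasts make, averaged 15616 CPM in dermal fibroblast-like cells and 113 CPM in T cell-like cells. In T cell-like cells Col1a1 stood at 105 and 197 CPM in mutant libraries, against 57.9 and 91.9 CPM in control libraries, and its bearing on the low Cxcl12 values there was not tested. In bulge follicle keratinocyte-like cells, the third class in the order, Cxcl12 stood at 70.2 and 80 CPM in mutant libraries, against 81 and 66 CPM in control libraries, and the 2 genotypes overlapped.

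Among the gated classes, Cxcr4, the signalling receptor of Cxcl12, was highest in T cell-like cells. Their mean was 110.3 CPM, with a range of 67.9 to 157 CPM over the 4 libraries and no overlap with any other class in the order. Papilla-like cells, at 31 CPM, came next, within the range of blood endothelial-like cells at 30.9 CPM. Langerhans or dendritic-like cells followed at 23.7 CPM, with a range of 19.5 to 27.8 CPM that held 1 of the 4 papilla-like libraries. Dermal fibroblast-like cells, the class highest in Cxcl12, stood at 13.7 CPM. Basal and suprabasal keratinocyte-like cells were lowest, at 1.23 and 1.18 CPM. T cell-like cells, with 4.27% of all UMIs, gave 31.7% of the Cxcr4 UMIs, and cells left ungated gave 30.1%. Single clusters stood above the T cell-like mean. Cluster 25, which was given no class, held 387 CPM in mutant and 444 CPM in control cells. Cluster 31, of the Langerhans or dendritic class, held 246 and 339.7 CPM, and cluster 26, of the T cell class, 306 and 214 CPM.

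In T cell-like cells, Cxcr4 stood at 157 and 134 CPM in mutant libraries, against 82.3 and 67.9 CPM in control libraries. Both mutant libraries lay above both control libraries. The log2 fold change was 0.88 ± 0.0908 (edgeR's quasi-likelihood test, adjusted p = 4.3e-07), under the fold asked for. At any fold, 23.8% of all genes tested in this class had an adjusted p under 0.05, and 3.42% were called. Without control replicate 1 the log2 fold change was 1.02 with an adjusted p of 0.11, and without control replicate 2 it was 0.75 with an adjusted p of 0.134. Heat shock genes moved in these cells too: of 11 immediate early and heat shock genes, 2 were called lower, where 3.42% of all genes were called in either direction. Hspa1a had a log2 fold change of -1.33 ± 0.0728 and Hspa1b of -1.51 ± 0.0326, and their part in the Cxcr4 values was not tested.

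By cluster, the T cell-like cells fell into groups with very different Cxcr4. In cluster 5 Cxcr4 stood at 281 and 262 CPM in mutant cells, against 254 and 232 CPM in control cells. In cluster 1 it stood at 7.3 and 12.7 CPM in mutant cells, against 9.04 and 11.5 CPM in control cells. The genotypes differed in how the cells were spread over these clusters: cluster 5 held 39.5% and 38.4% of the mutant T cell-like cells, against 19.6% and 17.9% of the control ones, and cluster 1 held 41% and 43.4% of the mutant cells, against 57% and 57.1% of the control cells. Within cluster 5 the mutant libraries lay above the control libraries by far less than in the class as a whole, and within cluster 1 the libraries of the 2 genotypes overlapped. Cluster 15, with 9.72% and 10.5% of the mutant T cell-like cells and 18.5% and 17.9% of the control ones, held Cxcr4 at 0 and 2.98 CPM in mutant cells, against 4.54 and 4.29 CPM in control cells.

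After thinning, 19.8% and 15.3% of the mutant T cell-like cells had a Cxcr4 UMI, against 9.84% and 8.05% of the control T cell-like cells. Without thinning these shares were 29.3% and 27.3% in mutant libraries, against 15.4% and 13.3% in control libraries. Suprabasal keratinocyte-like cells gave 0.442% and 0.286% after thinning in mutant libraries, against 0.0998% and 0.101% in control libraries. That class was the lowest of those compared in Cxcr4 and T cell-like cells the highest, so the order of these shares was fixed by the choice.

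**Figure D4:**
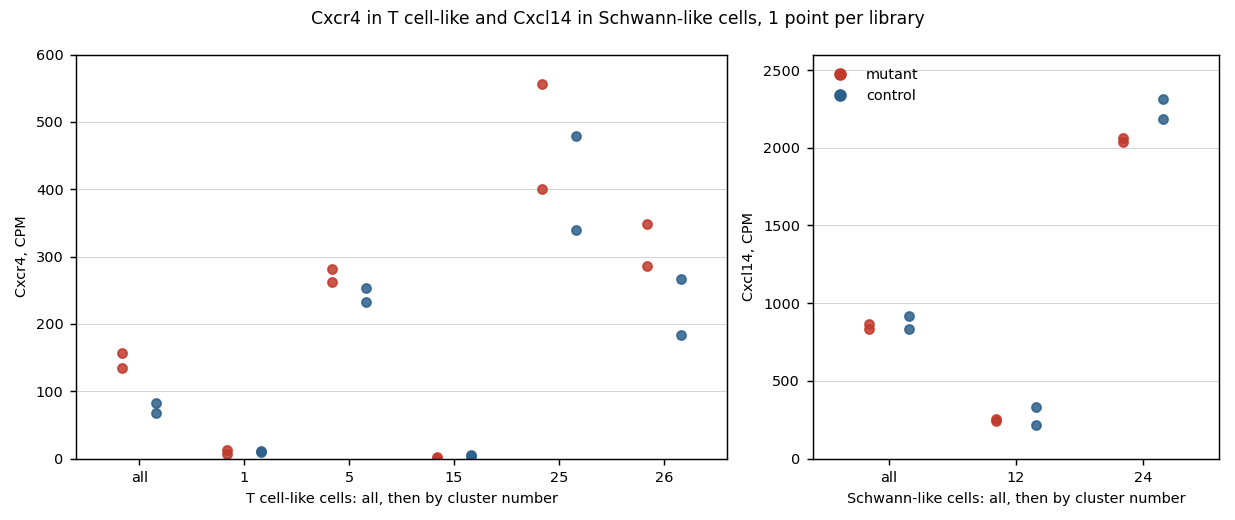
Cxcr4 in T cell-like cells and Cxcl14 in Schwann-like cells, in CPM, for all cells of the class and by cluster, with 1 point per library and mutant left of control. Cxcr4 is near 10 in cluster 1 and between 232 and 281 CPM in cluster 5, and Cxcl14 is 219 to 333 CPM in cluster 12 and 2036 to 2313 CPM in cluster 24.

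Cxcr4 was called in keratinocyte-like cells too, but at very low levels. In basal keratinocyte-like cells its level was 1.92 and 1.5 CPM in mutant libraries, against 0.796 and 0.693 CPM in control libraries. These levels rest on 124 mutant and 78 control UMIs summed over all cells of the class. The log2 fold change was 1.18 ± 0.222 (edgeR's quasi-likelihood test, adjusted p = 0.00149), and Cxcr4 was the 1 gene of the 7 called in this class, where 2.26% of all genes were. Without mutant replicate 1 it was 0.99, under the fold asked for. In suprabasal keratinocyte-like cells Cxcr4 stood at 1.2 and 2.28 CPM in mutant libraries, against 0.644 and 0.583 CPM in control libraries. The log2 fold change of 1.47 ± 0.38 (adjusted p = 0.0355 by edgeR's quasi-likelihood test) made it the 1 of 7 called, with 1.93% of all genes called, and DESeq2 gave an adjusted p of 0.251. Without mutant replicate 2 it was 0.94 with an adjusted p of 0.292. Cxcr4 of T cell-like cells moved the same way in these libraries, and whether it carried over as free RNA was not tested.

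In papilla-like cells Cxcr4 stood at 34.6 and 33 CPM in mutant libraries, against 26.4 and 30.1 CPM in control libraries. The 2 genotypes did not overlap, but the log2 fold change of 0.29 ± 0.128 had an adjusted p of 0.121 (edgeR's quasi-likelihood test). Without the clusters held by 1 genotype the genotypes overlapped, at 28.2 and 24.2 CPM in mutant libraries, against 26.4 and 30.1 CPM in control libraries. In dermal fibroblast-like cells the values were 11.4 and 13.1 CPM in mutant libraries, against 16.3 and 13.9 CPM in control libraries, with an adjusted p of 0.295. Of the 15 classes, 5 held too few Cxcr4 UMIs for a test, among them pericyte-like and lymphatic endothelial-like cells.

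Ackr3, the scavenging receptor of Cxcl12, was shared by dermal fibroblast-like and lymphatic endothelial-like cells. The 2 classes averaged 115 and 112 CPM and overlapped. Both stood above dermal sheath-like cells, at 55.1 CPM, and papilla-like cells, at 54 CPM, which overlapped with each other. T cell-like cells, at 2.72 CPM, and suprabasal keratinocyte-like cells, at 2.65 CPM, were lowest, so that the class highest in Cxcr4 was among the lowest in Ackr3. Basal keratinocyte-like cells, at 18.3 CPM, gave 23.7% of the Ackr3 UMIs and 34.2% of all UMIs.

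In papilla-like cells Ackr3 stood at 37.2 and 37.2 CPM in mutant libraries, against 61.4 and 80.4 CPM in control libraries. Both mutant libraries lay below both control libraries. The log2 fold change was -0.90 ± 0.123 (edgeR's quasi-likelihood test, adjusted p = 6.8e-05), under the fold asked for; 21.5% of all genes tested in this class had an adjusted p under 0.05 at any fold. The order of the genotypes was the same in the 2 clusters of dermal papilla-like cells that both genotypes filled: cluster 7 stood at 41 and 35.1 CPM in mutant cells against 71.5 and 85.1 CPM in control cells, and cluster 10 at 33.8 and 37.7 CPM in mutant cells against 53.4 and 69.8 CPM in control cells.

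In dermal fibroblast-like cells Ackr3 stood at 104 and 101 CPM in mutant libraries, against 138 and 118 CPM in control libraries. The fold change was -0.27 ± 0.0767 on the log2 scale, with an adjusted p of 0.0622 (edgeR's quasi-likelihood test). The effect of genotype in papilla-like minus that in dermal fibroblast-like cells was -0.60 ± 0.149, with an adjusted p of 0.00812. In basal keratinocyte-like cells Ackr3 stood at 16.2 and 14.3 CPM in mutant libraries, against 22.5 and 20.4 CPM in control libraries, a log2 fold change of -0.51 ± 0.0672 with an adjusted p of 8.5e-05. Ackr3 was called in 0 of the 13 classes in which it was tested by edgeR's quasi-likelihood test, and papilla-like and basal keratinocyte-like cells were the 2 with an adjusted p under 0.05. The unadjusted p was under 0.05 in 5 classes, and DESeq2 called 0 as well. In lymphatic endothelial-like cells its level was 113 and 133 CPM in mutant libraries, against 94.3 and 106 CPM in control libraries, with an adjusted p of 0.454.

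Among the gated classes, Cxcl14, the chemokine of resting epithelium, was highest in bulge follicle keratinocyte-like cells. The bulge is the part of the follicle that houses its stem cells. The 4 libraries ranged from 928 to 1079 CPM there, with a mean of 1018 CPM. Schwann-like cells followed at 864 CPM and basal keratinocyte-like cells at 769.6 CPM, and none of these 3 classes overlapped with the next. Langerhans or dendritic-like cells, at 483 CPM, overlapped with melanocyte-like cells, at 339.6 CPM. Suprabasal keratinocyte-like cells stood at 166 CPM, well under the basal ones. Dermal fibroblast-like cells were lowest, at 36.8 CPM. Basal keratinocyte-like cells gave 60.1% of all Cxcl14 UMIs. Their clusters were unlike: cluster 3, of the basal class, held 1182 CPM in mutant and 1306 CPM in control cells. That is above cluster 13, of the bulge class, at 1072 and 1108 CPM, while cluster 0, also basal, held 600.2 and 739 CPM.

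The level in Langerhans or dendritic-like cells stood beside a high level of a keratinocyte gene. Krt14, the keratin of basal keratinocytes, averaged 6187 CPM in Langerhans or dendritic-like cells and 8994 CPM in basal keratinocyte-like cells, but 396 CPM in T cell-like cells. How much of the Cxcl14 and Cxcl16 in Langerhans or dendritic-like cells came from keratinocyte RNA was not tested.

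The Schwann-like level was the mean of 2 unlike clusters. Cluster 24, with 37.4% and 36.6% of the mutant and 34.6% and 39.9% of the control Schwann-like cells, held Cxcl14 at 2064 and 2036 CPM in mutant cells, against 2313 and 2184 CPM in control cells. Cluster 12 held it at 256 and 239 CPM in mutant cells, against 333 and 219 CPM in control cells. Over the class, Cxcl14 did not differ by genotype at the threshold, with 868 and 834 CPM in mutant libraries, against 832 and 919.8 CPM in control libraries (edgeR's quasi-likelihood test, adjusted p = 0.959).

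Cxcl14 differed between genotypes by modest amounts in 5 classes, with none of them called by edgeR's quasi-likelihood test. DESeq2 called 0 too, and 10 of the 15 classes had an unadjusted p under 0.05. It fell by 0.67 ± 0.0372 on the log2 scale in suprabasal keratinocyte-like cells, where the libraries stood at 127 and 130.2 CPM in the mutant, against 199.6 and 206 CPM in the control (adjusted p = 1.6e-06). In basal keratinocyte-like cells its level was 708 and 726 CPM in mutant libraries, against 828 and 817 CPM in control libraries (log2 -0.22 ± 0.0294, adjusted p = 1.1e-04). In Langerhans or dendritic-like cells its level was 401 and 422 CPM in mutant libraries, against 533 and 574 CPM in control libraries (log2 -0.47 ± 0.0597, adjusted p = 0.00441). Krt14 was also lower there, with 5805 and 5836 CPM in mutant libraries, against 6429.9 and 6676 CPM in control libraries. The libraries of the 2 genotypes did not overlap in any of these 3 classes.

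The 2 mesenchymal classes went in opposite directions. In papilla-like cells Cxcl14 stood at 73.6 and 91 CPM in mutant libraries, against 51.3 and 51.5 CPM in control libraries, a log2 fold change of 0.71 ± 0.111 (edgeR's quasi-likelihood test, adjusted p = 2.3e-04). Its values in dermal fibroblast-like cells were 29.3 and 28.7 CPM in mutant libraries, against 45.3 and 43.7 CPM in control libraries, a log2 fold change of -0.57 ± 0.0803 (adjusted p = 0.00273). The difference between these effects, papilla-like minus dermal fibroblast-like, was 1.30 ± 0.141 on the log2 scale with an adjusted p of 8.4e-07, called in a test in which 4.32% of all genes were. Of the 7 genes, Cxcl14, Cxcl1 and Cxcl2 were called in that test. Krt14 in dermal fibroblast-like cells moved with the fall, at 201 and 189.6 CPM in mutant libraries, against 326 and 279.6 CPM in control libraries. In papilla-like cells Krt14 was lower too, at 208 and 217 CPM in mutant libraries, against 251 and 312 CPM in control libraries, while Cxcl14 was higher. The part of keratinocyte RNA in the dermal fibroblast-like fall was not tested.

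Cxcl1 and Cxcl2, the neutrophil attractants, lie side by side on mouse chromosome 5. In the GENCODE annotation of GRCm38, Cxcl1 spans chr5:90891241-90893115 and Cxcl2 spans chr5:90903871-90905938, both on the plus strand and with 10755 bases between them. The 2 promoters are shown because both genes moved together in papilla-like cells and were the 2 of the 7 with a match to an NF-kB type motif in the window searched. Each line gives 120 bases of the plus strand of GRCm38.p6 from RefSeq, 5′ to 3′, from 150 to 31 bases before the RefSeq start of the gene. Capitals mark every match to GGGNNNTTCC on either strand, and where a match on 1 strand overlaps one on the other the run of capitals covers both.
Cxcl1, chr5:90891095-90891214: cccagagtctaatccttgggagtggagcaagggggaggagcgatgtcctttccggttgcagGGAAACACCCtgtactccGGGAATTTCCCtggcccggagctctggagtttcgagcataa
Cxcl2, chr5:90903749-90903868: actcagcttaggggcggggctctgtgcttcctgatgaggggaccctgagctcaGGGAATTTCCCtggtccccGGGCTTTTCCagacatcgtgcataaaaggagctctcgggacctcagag

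The Cxcl1 window held 1 match on the plus strand and 2 on the minus strand, and the Cxcl2 window 2 on the plus strand and 1 on the minus strand. Both hold the run GGGAATTTCCC, in which a match on each strand overlaps. Of all 32544 promoter windows of this length in the table, 2.25% held a match. Of the 7 genes, 6 had a promoter in the table, and the windows of Cxcl12, Cxcr4, Ackr3 and Cxcl14 held no match. A match describes the letters only. The other genes lie at chr6:117168535-117181367 (Cxcl12, plus strand), chr1:128588199-128592293 (Cxcr4, minus strand), chr1:90203980-90216751 (Ackr3, plus strand), chr13:56288643-56296551 (Cxcl14, minus strand) and chr11:70453983-70459984 (Cxcl16, minus strand).

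Cxcl1 was highest in pericyte-like cells, the contractile cells around small vessels. They averaged 11789 CPM, with a range of 9536 to 14034 CPM. Blood endothelial-like cells followed at 5855 CPM, dermal sheath-like cells at 2708 CPM and dermal fibroblast-like cells at 1919 CPM, and none of these classes overlapped with the next. With classes taken from clusters no pericyte class was left. Cluster 22, named dermal sheath with 48.6% of its cells in that gate, held 93 of 120 mutant and 68 of 93 control pericyte-like cells. The class named dermal sheath, then a mix of both, was highest, at 7235 CPM, before blood endothelial-like cells at 6599 CPM. Papilla-like cells stood at 559.9 CPM, and suprabasal keratinocyte-like cells were lowest, at 34.5 CPM. Cxcl2 was highest in blood endothelial-like cells, at 4771 CPM, and pericyte-like cells, at 4659 CPM, which overlapped. Langerhans or dendritic-like cells came next for Cxcl2, at 1316 CPM, in contrast to their 77.5 CPM of Cxcl1. They gave 32.3% of all Cxcl2 UMIs, and basal keratinocyte-like cells, rich in Krt14, stood at 26.1 CPM of Cxcl2.

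Within dermal fibroblast-like cells, Cxcl2 was far higher in cluster 19 than in cluster 6. In cluster 19, which held 51 and 72 of the mutant and 47 and 50 of the control dermal fibroblast-like cells, Cxcl2 stood at 9406 and 13560.3 CPM in mutant cells, against 16145 and 21061 CPM in control cells. Cxcl1 stood there at 14681 and 14255 CPM in mutant cells, against 17907 and 23065 CPM in control cells. In cluster 6 Cxcl2 stood at 114 and 102 CPM in mutant cells, against 152 and 223 CPM in control cells. Most cells of cluster 19 passed no marker gate (346 of the cells), and 220 were dermal fibroblast-like. Over the whole cluster, Il6, the gene of an inflammatory cytokine, stood at 1069.8 and 555 CPM in mutant cells, against 1301 and 1635 CPM in control cells.

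In dermal fibroblast-like cells as a whole neither gene differed by genotype at the threshold. Cxcl1 stood at 1908 and 1901 CPM in mutant libraries, against 1908 and 1958 CPM in control libraries (edgeR's quasi-likelihood test, log2 0.02 ± 0.0325, adjusted p = 0.735). Cxcl2 stood at 901 and 1145 CPM in mutant libraries, against 976 and 1332 CPM in control libraries (log2 -0.13 ± 0.138, adjusted p = 0.623). The genotypes overlapped for Cxcl2, and for Cxcl1 mutant replicate 1 and control replicate 1 stood at the same rounded value. Left without cluster 19, which was singled out after its values were seen, these cells held Cxcl2 at 537 and 462 CPM in mutant libraries, against 267 and 175 CPM in control libraries, and Cxcl1 at 1361 and 1222 CPM in mutant libraries, against 1161 and 719.7 CPM in control libraries. So both genes were then higher in both mutant libraries, a difference with no test here. The cells left still included cluster 21, found almost only in the mutant, where all mutant cells held Cxcl2 at 1353 and Cxcl1 at 1939 CPM. Over whole clusters, both genes were lower in mutant cells in cluster 6, and higher in clusters 11, 20 and 27. In cluster 17 Cxcl1 was higher and Cxcl2 was not. The part of cluster 21 in this difference was not tested. With classes taken from clusters instead of the gate, Cxcl2 was higher in the mutant by 1.26 on the log2 scale (edgeR's quasi-likelihood test, adjusted p = 2.2e-06). That class leaves out cluster 19, which was given no class, and keeps cluster 21.

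In papilla-like cells both genes were higher in the mutant. Cxcl1 stood at 705 and 785 CPM in mutant libraries, against 407 and 342 CPM in control libraries. Cxcl2 stood at 88.7 and 118 CPM in mutant libraries, against 36.5 and 35.5 CPM in control libraries. For both genes each mutant library lay above each control library. The log2 fold change was 1.02 ± 0.0841 for Cxcl1 (adjusted p = 3.3e-07) and 1.55 ± 0.131 for Cxcl2 (adjusted p = 4.3e-07), both by edgeR's quasi-likelihood test. These were the 2 of 7 genes called in papilla-like cells, where 5.21% of all genes were called. Cxcl1 lay just past the fold asked for: it was 0.94 without mutant replicate 2 and 0.89 without control replicate 2.

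By cluster, the same order held where both genotypes had dermal papilla-like cells. In cluster 7, with 176 and 148 mutant and 160 and 170 control cells, Cxcl1 stood at 641 and 713 CPM in mutant cells, against 332 and 324 CPM in control cells. In cluster 10, with 186 and 194 mutant and 71 and 56 control cells, it stood at 996 and 1124 CPM in mutant cells, against 477 and 370.2 CPM in control cells. Cluster 14, with 227 and 244 mutant cells and a single control cell, was lower, at 279 and 318 CPM. Cxcl2 in cluster 7 stood at 53.4 and 35.1 CPM in mutant cells, against 30 and 26.2 CPM in control cells, and in cluster 10 at 118 and 191 CPM in mutant cells, against 43.6 and 34.9 CPM in control cells. Without the clusters held by 1 genotype, the Cxcl1 fold change was 1.37 on the log2 scale.

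Markers of dermal fibroblasts moved with this result. The 9 fibroblast markers of the gate summed to 1842 and 1944 CPM in mutant papilla-like cells, against 1004 and 1093 CPM in control papilla-like cells, with none of the 9 at 0. The 10 papilla markers summed to 2637 and 2723 CPM in mutant cells, against 2495 and 2576 CPM in control cells. Col1a1 alone stood at 425 and 434 CPM in mutant papilla-like cells, against 240.1 and 264 CPM in control papilla-like cells. Cxcl12, highest in dermal fibroblast-like cells, stood at 9.33 and 7.67 CPM in mutant papilla-like cells, against 5.94 and 2.96 CPM in control ones. The part of fibroblast RNA in the higher Cxcl1 and Cxcl2 was not tested.

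The effects on Cxcl1 and Cxcl2 differed between the 2 mesenchymal classes. The effect of genotype in papilla-like minus that in dermal fibroblast-like cells was 1.02 ± 0.0912 on the log2 scale for Cxcl1 (adjusted p = 5.0e-08) and 1.68 ± 0.123 for Cxcl2 (adjusted p = 1.9e-09), both called by edgeR's quasi-likelihood test. For Cxcl12 the same difference was -0.63 ± 0.324 with an adjusted p of 0.233. The dermal fibroblast-like side of the Cxcl2 difference depends on cluster 19. Without it, and with cluster 21 still among the mutant cells, Cxcl2 was higher in both mutant libraries.

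**Figure D5:**
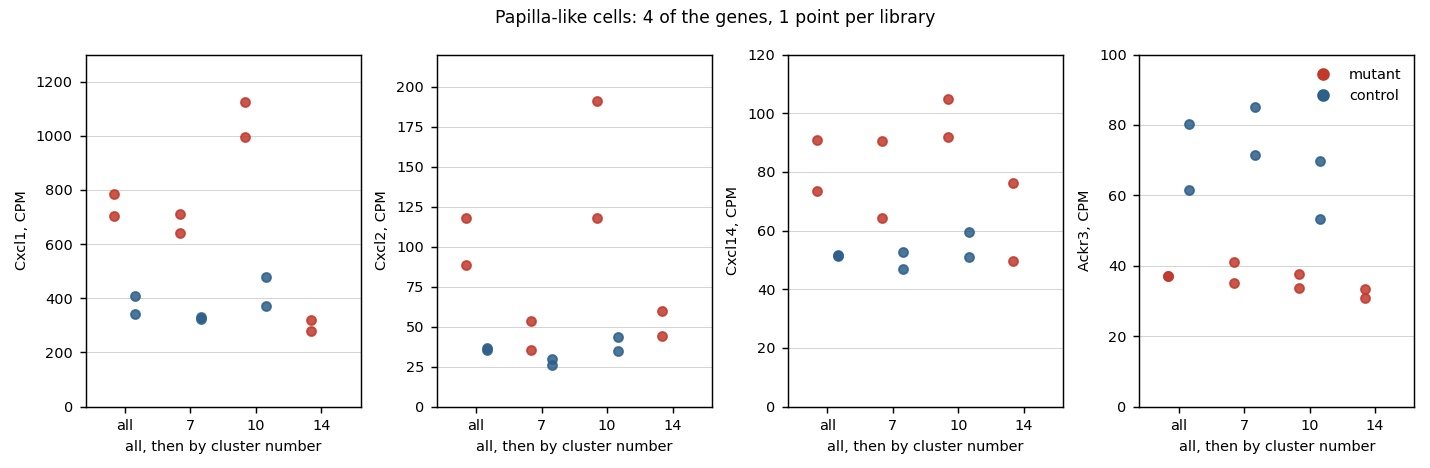
Cxcl1, Cxcl2, Cxcl14 and Ackr3 in papilla-like cells, in CPM, for all cells and by cluster, with 1 point per library and mutant left of control; cluster 14 has too few control cells for a point. Cxcl1 lies higher and Ackr3 lower in mutant cells in clusters 7 and 10.

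In bulge follicle keratinocyte-like cells Cxcl1 stood at 429.9 and 297 CPM in mutant libraries, against 165 and 83.9 CPM in control libraries. The libraries did not overlap, and the log2 fold change was 1.53 ± 0.257 (edgeR's quasi-likelihood test, adjusted p = 0.0153). Cxcl1 was the 1 of 7 genes called in this class, where 0.808% of all genes were. The level was carried by few cells: 5 and 6 of the mutant cells and 4 and 0 of the control cells gated as bulge follicle keratinocyte-like lay in cluster 19. Without those cells Cxcl1 stood at 118 and 135 CPM in mutant libraries, against 74.4 and 83.9 CPM in control libraries. Both mutant libraries still lay above both control libraries, by a smaller amount. The 11 immediate early and heat shock genes had a median log2 fold change of -0.42 in this class, with 0 of them called by edgeR or DESeq2 and 10 at an unadjusted p under 0.05; their part in the Cxcl1 values was not tested. For Cxcl1, DESeq2 gave an adjusted p of 0.144, and with classes taken from clusters the fold change was -0.36 on the log2 scale with an adjusted p of 0.0751.

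Smaller differences of Cxcl1 and Cxcl2 were measured in other classes. In T cell-like cells Cxcl1 stood at 55.7 and 58.6 CPM in mutant libraries, against 25.3 and 38.6 CPM in control libraries (edgeR's quasi-likelihood test, log2 0.76 ± 0.132, adjusted p = 2.3e-04). In basal keratinocyte-like cells its level was 67.1 and 73.4 CPM in mutant libraries, against 51.5 and 50.2 CPM in control libraries (log2 0.45 ± 0.0446, adjusted p = 6.5e-06). Over the whole libraries, with all cells summed, Cxcl1 stood at 580.0 and 505 CPM in the mutant, against 282 and 278 CPM in the control. The part of free RNA in the differences of the classes low in Cxcl1 was not tested.

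In Langerhans or dendritic-like cells Cxcl2 was lower in the mutant, at 1176 and 926 CPM in mutant libraries, against 1566 and 1596 CPM in control libraries. The libraries did not overlap, and the log2 fold change was -0.63 ± 0.0874 (edgeR's quasi-likelihood test, adjusted p = 0.00589). None of the 7 genes was called in this class by edgeR or DESeq2, where edgeR called 0.824% of all genes, and 3 of the 7 had an unadjusted p under 0.05. In pericyte-like cells, the class highest in Cxcl1, it stood at 14034 and 10251 CPM in mutant libraries, against 13334 and 9536 CPM in control libraries, and in blood endothelial-like cells at 5708 and 6264 CPM in mutant libraries, against 6209 and 5240.5 CPM in control libraries. The genotypes overlapped in both, with adjusted p-values of 0.995 and 0.898.

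Cxcl16, the membrane chemokine, was a gene of the epidermis. Langerhans or dendritic-like cells averaged 825 CPM and suprabasal keratinocyte-like cells 774 CPM, and the 2 overlapped. Basal keratinocyte-like cells, at 692 CPM, and upper follicle keratinocyte-like cells, at 604 CPM, each stood below the class before them without overlap. Bulge follicle keratinocyte-like cells stood at 232 CPM, and papilla-like cells were lowest, at 33.7 CPM. Basal and suprabasal keratinocyte-like cells together held most of the gene's UMIs, 44.2% and 22.5% of them.

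No class called Cxcl16 between genotypes. It was tested in all 15 classes by edgeR's quasi-likelihood test, and in 0 of them was the adjusted p under 0.05. The unadjusted p was under 0.05 in 4, and DESeq2 called 2, mast-like and dermal sheath-like cells. In dermal sheath-like cells Cxcl16 stood at 135 and 157 CPM in mutant libraries, against 231 and 372 CPM in control libraries, with no overlap (log2 -1.07 ± 0.259, adjusted p = 0.104 by edgeR), and edgeR called it once control replicate 1 was left out. In suprabasal keratinocyte-like cells its level was 801 and 764 CPM in mutant libraries, against 763 and 766 CPM in control libraries (log2 0.02 ± 0.0298), and in Langerhans or dendritic-like cells at 856 and 839 CPM in mutant libraries, against 815 and 789 CPM in control libraries (log2 0.04 ± 0.0474). The smallest adjusted p-values were 0.054 in basal keratinocyte-like cells, with a log2 fold change of 0.08, and 0.0619 in mast-like cells, with a log2 fold change of 3.73. In mast-like cells its level was 544 and 177 CPM in mutant libraries, against 38.2 and 19.8 CPM in control libraries, on 132 mutant and 6 control UMIs. Krt14 in the mast-like cells stood at 2273 and 151 CPM in mutant libraries, against 1338 and 277 CPM in control libraries, and its part was not tested.

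Receptors and processing enzymes of these chemokines were read from lists beside the 7 genes. Cxcr6, the receptor of Cxcl16, was high in T cell-like cells, at 649 and 597 CPM in mutant libraries, against 435 and 402 CPM in control libraries, and its log2 fold change there was 0.50 ± 0.0511 (edgeR's quasi-likelihood test, adjusted p = 4.0e-07). Cxcr2, the receptor of Cxcl1 and Cxcl2, averaged 1.18 CPM in T cell-like cells and 2.65 CPM in suprabasal keratinocyte-like cells; neutrophil-like cells, which are known to carry it, were too few to compare. Dpp4, a peptidase that cuts and inactivates Cxcl12, stood at 74.5 and 73.8 CPM in mutant papilla-like cells, against 68 and 65.6 CPM in control papilla-like cells, and averaged 27.8 CPM in dermal fibroblast-like cells. Adam10, the sheddase of Cxcl16, averaged 39.5 CPM in suprabasal keratinocyte-like cells and 127 CPM in lymphatic endothelial-like cells. Ackr1, a further atypical receptor that binds several inflammatory chemokines, averaged 34.5 CPM in blood endothelial-like and 26.7 CPM in dermal fibroblast-like cells.

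Other lists give the setting of the Cxcl12 and Cxcl1 results. A list of genes that accompany Cxcl12 in the stroma of bone marrow had 9 of 10 genes tested in dermal fibroblast-like cells, of which 1, Lepr, was called higher against 1.13% of all genes, with a median log2 fold change of 0.34 against 0 over all genes. In papilla-like cells 4 of the 9 genes tested were called higher, against 3.65% of all genes: Kitl, the ligand of the Kit receptor (1.17 ± 0.108), Il7, a lymphocyte growth factor (1.12 ± 0.3), Vcam1, an adhesion molecule (1.30 ± 0.14), and Lpl, lipoprotein lipase (2.16 ± 0.157). Vcam1 averaged 389 CPM in mutant papilla-like cells and 157 CPM in control papilla-like cells. Of the 9 genes of a list responsive to NF-kB, 0 were called in papilla-like cells by edgeR's quasi-likelihood test, with a median of -0.22 on the log2 scale, and 0 in dermal fibroblast-like cells, with a median of 0.05. DESeq2 called 0 in both, and the unadjusted p was under 0.05 for 6 genes in papilla-like and 3 in dermal fibroblast-like cells. Nfkbia, which encodes the inhibitor of NF-kB, had a log2 fold change of -0.46 ± 0.0632 in papilla-like cells, at 1711 CPM in mutant cells against 2359 CPM in control cells.

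Genes that respond to handling stress moved in papilla-like cells as well. Of 11 immediate early and heat shock genes tested, 4 were called lower, against 1.56% of all genes: Egr1, an immediate early factor (-1.06 ± 0.0836), the chaperones Hspa1a (-1.45 ± 0.0558) and Hspa1b (-1.33 ± 0.0578), and the co-chaperone Dnajb1 (-1.06 ± 0.0683). Their list had a median log2 fold change of -0.94 in papilla-like cells and -0.11 in dermal fibroblast-like cells. Egr1 averaged 2655 CPM in mutant papilla-like cells and 5545 CPM in control papilla-like cells. Cxcl1 and Cxcl2 were higher in the mutant papilla-like cells in which these genes were lower, and the part of RNA changes during tissue dissociation in any of these values was not tested.

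Each of the 7 genes had close companions in its pattern over the 15 classes, among 9161 genes that reached 20 CPM in at least 1 class. Likeness was Pearson's r of log2(CPM + 1) averaged over the 4 libraries, a description over 15 classes that share libraries. Cxcl12 was most like Lif (0.856), Eps8 (0.856) and Nrep (0.854). Cxcr4 was most like Impdh1 (0.859), Fndc4 (0.853) and Rcbtb2 (0.85), and Ackr3 like Ehd2 (0.943), Man1c1 (0.933) and Lamc1 (0.932). Cxcl14 was most like Adgrg6 (0.897), Plpp2 (0.892) and Plxnb1 (0.871). Cxcl1 was most like Adamts4 (0.974), Sparcl1 (0.953) and Cdc42ep2 (0.941), and Cxcl2 like Il6 (0.831), Gm13889 (0.794) and Isg15 (0.788). Cxcl16 was most like F2rl1 (0.959), Ocln (0.954) and Lsr (0.954).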

How the data were processed

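The deposited files are matrices of UMI counts per gene and cell, made by the authors with Cell Ranger (versions 2.1.1 and 3.1.0) on mm10 or GRCm38, per the submitters' processing notes, which also name Seurat 3.2.2 and Scanpy 1.6.0. Those notes give no roles to these tools. The unsorted matrices list 28001 features and the sorted one 31054. From these counts, cells with 500 (sorted library 300) to 8000 genes and at most 10% mitochondrial UMIs were kept, and doublets marked by scrublet (1.76% to 2.19% of the cells of an unsorted library) were removed; none were removed from the sorted library. The unsorted libraries totalled 147245343 to 171197845 UMIs.

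Each cell was scored on 20 marker lists and gated where its best list led the next by a margin; 4452 cells lay near a threshold. Of the 20 lists, 5 gave too few cells (macrophage or monocyte, neutrophil, sebocyte, adipocyte, skeletal muscle). Cells were also clustered with Scanpy 1.11.5 and leidenalg 0.10.2 without the 7 genes and the gene lists named in the text. UMI counts were summed per library and class and compared by the quasi-likelihood test of edgeR 4.0.16, after its default filter on low counts and TMM scaling, with DESeq2 1.42.0, RLE scaling, no filter, left-out libraries, a replicate block, another gate, clusters and kept doublets as alternatives. The fit was tested on simulated data of known fold changes. Shares of cells were taken after thinning to 2000 UMIs, with exact 95% intervals where a single library is given, which cover counting error only. Replicate numbers were not used as pairs: the replicate differences of the 2 genotypes correlated at -0.05 to 0.19 over the classes.

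The genes, the lists and the tests were chosen with earlier results of these data known, and gate thresholds were set with the sizes of the gated groups in view. The text names the 7 genes in each class, genes of the lists called in papilla-like or dermal fibroblast-like cells, the 3 genes most like each, and others where a result turns on them. Cxcl11 and 3 T cell markers of the lists (Trac, Trbc2 and Trdc) were not matched in the unsorted features and are not analysed here. The values of a marker gene by cluster are not reported here.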

Additional observations from a re-analysis of the deposited data

Results flagged for a closer look

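The effect of genotype differed between papilla-like and dermal fibroblast-like cells for 4 of the 7 genes, by edgeR's test of the difference itself. On the log2 scale the effect in papilla-like minus that in dermal fibroblast-like cells was 1.68 for Cxcl2, 1.30 for Cxcl14, 1.02 for Cxcl1 and -0.60 for Ackr3. The fold asked for was reached by the first 3 of these.

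The difference between eGFP-positive and eGFP-negative dermal fibroblast-like cells differed between the genotypes for 2 genes. Mutant minus control, it was 0.95 for Cxcl12 on the log2 scale. For Cxcl2 it was -0.88 ± 0.201 (adjusted p = 0.0483 by edgeR's quasi-likelihood test). Cxcl2 stood at 885 and 813 CPM in eGFP-positive mutant cells, against 928 and 1550.0 CPM in eGFP-negative mutant cells. In control libraries it stood at 1467 and 1729.8 CPM in eGFP-positive cells, against 1144 and 1267 CPM in eGFP-negative cells. As above, eGFP was low in control cells of this class, and whether Cre had acted in the positive ones was not tested. Groups of 2 libraries are too small for a test of single libraries that stand apart.

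The sorted GFP-positive library entered no comparison, and all 7 genes were detected in its 432 cells above the 2.68 CPM that a count of 0 would allow. Cxcl12 stood at 318 CPM (exact Poisson 95% interval 286 to 353, counting error only), Cxcl14 at 139 CPM (118 to 163) and Cxcl1 at 91.2 CPM (74.3 to 111). The others were low: Cxcl16 stood at 12.5 CPM (6.84 to 21), Cxcr4 at 8.94 CPM (4.29 to 16.4), Cxcl2 at 8.05 CPM (3.68 to 15.3) and Ackr3 at 4.47 CPM (1.45 to 10.4). The Cxcl14 level rested largely on few cells. Of its 156 UMIs, 76 lay in 14 cells gated as basal and 18 in 10 cells gated as suprabasal keratinocyte-like. The 251 ungated cells stood at 69.8 CPM of Cxcl14 (50.1 to 94.7). With 1 library, another chemistry and another age there is no replicate check and no comparison with the unsorted libraries.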

How the results depend on the processing

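Of the 6 called pairs of a gene and a class, Cxcl2 in papilla-like cells was called under all 12 alternatives, with log2 fold changes of 1.29 to 1.8. Cxcl12 in dermal fibroblast-like cells was called under 9 of 12 (0.53 to 1.81), Cxcr4 in basal keratinocyte-like cells under 10 of 12 (0.91 to 1.36), Cxcl1 in papilla-like cells under 7 of 12 (0.89 to 1.37, under the fold in the others) and Cxcr4 in suprabasal keratinocyte-like cells under 7 of 12 (0.94 to 1.87). Cxcl1 in bulge follicle keratinocyte-like cells was called under 10 of 12 and turned its sign with classes by Leiden cluster (-0.36). Cxcl2 in dermal fibroblast-like cells turned its sign there too (1.26). Classes by Leiden cluster hold no cells of cluster 19, which was given no class, so they compare other cells. Cxcl12 in papilla-like against dermal fibroblast-like cells stayed called under each alternative run. Of the pairs not called, 22 were called under some alternative without a change of sign. The causes were not tested.

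The 200 genes called in dermal fibroblast-like cells were 113 with DESeq2, 36 with no filter, 26 to 95 with a library left out, 308 with classes by Leiden cluster and 120 without the clusters held by 1 genotype, the alternative added after seeing the data. The 648 genes called in papilla-like cells were 384 with DESeq2. With the replicate number as a block, 236 and 669 genes were called in dermal fibroblast-like and papilla-like cells; the numbers do not pair the libraries. The mean of Cxcl14 in bulge follicle keratinocyte-like cells was 1121 CPM with the stricter gate and 1091 by Leiden cluster. That of Cxcl1 in pericyte-like cells was 14148 CPM with the stricter gate, and that of Cxcl2 in blood endothelial-like cells 5699 CPM by Leiden cluster. By Leiden cluster no pericyte class was left. The class named dermal sheath, which took in most pericyte-like cells, then led in Cxcl1 at 7235 CPM. The share of dermal fibroblast-like cells with Cxcl12 was 13.1% thinned to 1000 UMIs and 43% not thinned, and that of T cell-like cells with Cxcr4 7.9% and 21.3%.

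Precision is limited by 2 libraries a genotype and, for Cxcr4 outside T cell-like cells and Cxcl12 in papilla-like cells, by few UMIs.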

Other observations

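Cxcl10 and Cxcl9, CXC ligands of the receptor Cxcr3 that interferon induces, were called higher in the mutant in basal and suprabasal keratinocyte-like, Langerhans or dendritic-like and T cell-like cells. In basal keratinocyte-like cells Cxcl10 stood at 387 and 325 CPM in mutant libraries, against 46.2 and 54.4 CPM in control libraries (log2 2.80 ± 0.0729), and Cxcl9 at 42.9 and 47.1 CPM in mutant libraries, against 1.81 and 2.62 CPM in control libraries (log2 4.32 ± 0.0997). In suprabasal keratinocyte-like cells the log2 fold change was 1.78 for Cxcl10 and 1.84 for Cxcl9. In Langerhans or dendritic-like cells, which also held Krt14 at 6187 CPM, Cxcl10 stood at 552 and 261 CPM in mutant libraries, against 42.2 and 19.2 CPM in control libraries (edgeR's quasi-likelihood test, log2 3.68 ± 0.379, adjusted p = 0.0012). Cxcl9 there stood at 72.8 and 79.5 CPM in mutant libraries, against 17.7 and 1.7 CPM in control libraries (log2 2.92 ± 0.511, adjusted p = 0.0168). The part of keratinocyte RNA in these 2 values was not tested. In T cell-like cells Cxcl10 stood at 69.3 and 59 CPM in mutant libraries, against 25.3 and 20.8 CPM in control libraries. Cxcr3 was called in the same T cell-like cells, at 73.2 and 69.8 CPM in mutant libraries, against 34 and 28.8 CPM in control libraries (log2 1.12 ± 0.098, adjusted p = 5.8e-08). For each of these genes both mutant libraries lay above both control libraries.

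The sorted library was gated with the same marker lists and thresholds, but its scores were scaled within its own 432 cells. Its class names are thus relative to other GFP-positive cells and are not equal to those of the unsorted libraries. Cxcl12 there stood at 1079 CPM in 49 dermal fibroblast-like cells (exact Poisson 95% interval 883 to 1304) and 696 CPM in 44 blood endothelial-like cells (576 to 833). In 21 papilla-like cells it stood at 31.9 CPM (3.86 to 115), on 2 UMIs.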
